A study of Mus musculus with 111 samples.

Results

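Histone genes were followed in polyadenylated RNA from single mouse 2-cell embryos after Nr5a2 knockdown. Members were all genes whose symbol is that of a linker histone (H1f), a core histone (H2a, H2b, H3c, H3f, H4c, H4f or the older Hist form) or a macroH2A. The choice used names only, and gave 108 of 36134 genes. Of these, 57 lie on chromosome 13, 11 on chromosome 3 and 20 on chromosome X. H2bc21, an H2B gene, is described apart, because its counts followed the injected RNA for an H2B fusion protein.

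Core histones form the nucleosome around which DNA is wound, and linker histones bind where the DNA enters and leaves it. Replication-dependent histone mRNAs are made mainly in S phase and end in a conserved stem-loop in place of a poly(A) tail. Replacement histones such as H3.3 and H2A.Z are made from polyadenylated mRNAs at any time of the cell cycle, and the mouse oocyte stores histone RNA and the oocyte linker histone H1f8 for the early cleavages. Priming with oligo dT captures RNA that carries a poly(A) tail, so the levels below are those of polyadenylated forms and not of all histone RNA.

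The embryos were of strain B6129F1. Oocytes at the germinal vesicle stage received a set of 2 control siRNAs or of 2 siRNAs against Nr5a2, each siRNA at 20 µM, and 150 ng/µl of marker RNA. Per the labels the marker coded for H2B-EGFP in control and H2B-rsEGFP in target injections. All oocytes were then held 5 hours in dbcAMP medium, matured for 12 hours in M16, fertilized in vitro and grown in KSOM. Control embryos thus share being injected, the maturation and the fertilization with the knockdown embryos, but not the siRNAs or the marker RNA. The arms differ in siRNA and marker together, so the 2 cannot be told apart. The level of marker RNA also differed between the arms, as given below. There were 24 control and 16 knockdown embryos in experiment 1, 7 and 16 in experiment 2, and 25 and 23 in experiment 3. The labels do not tie embryos to mothers, so a p-value sets a difference against the spread from embryo to embryo. The estimated counts over genes totalled 4.75 M in the median library, 1.96 M in the shallowest and 21.2 M in the deepest. Levels are counts per M counts (CPM), and levels compared between genes are per transcript length (TPM). A level is a share of the library, so less of 1 RNA and more of all other RNA in an embryo cannot be told apart.

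Nr5a2 RNA was at 109 ± 48.9 CPM in control (SD, n = 56) and 48.6 ± 19.8 CPM in knockdown embryos (SD, n = 55), and edgeR gave -1.17 as the log2 fold change (SE 0.12, adjusted p = 3.71e-12). Markers fixed for 2-cell embryos summed to a mean of 860 CPM in control and 761 CPM in knockdown embryos, and oocyte markers to 2755 and 3253 CPM. Of 5 cumulus cell markers, Has2, Ptx3, Inhba and Amh had a mean of at most 0.264 CPM in either arm, while Tnfaip6 was at 8.30 and 8.45 CPM. Sperm and spermatid markers summed to 1.67 and 1.60 CPM. One group went against its label: the 24 control embryos of experiment 1 had a mean of 0.235 CPM on the marker rows, with 10 of them at 0, although the protocol gives marker RNA to controls.

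The stem-loop was read from the GENCODE M21 transcripts (build GRCm38), in the 100 bases after each annotated stop codon. Shown are 6 of the matches, because their genes carry this mark of replication-dependent histone mRNA and were counted here in polyadenylated RNA. H2ac24, H2bc9, H3c7 and H4c4 are of the replication-dependent class, and H2ax is a replacement variant. H4f16 was grouped with the germ line and short variants by its symbol only. Its coding part has 312 bases, as that of H4c4 has, so the class name does not describe it. Capitals mark the 16 bases that match the histone stem-loop consensus, and each line runs 5′ to 3′ along the mRNA.
H2ac24, chr13:21833026-21833049, minus strand: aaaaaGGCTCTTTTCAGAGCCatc
H2bc9, chr13:23542923-23542948, minus strand: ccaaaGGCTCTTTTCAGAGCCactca
H3c7, chr13:23544927-23544952, plus strand: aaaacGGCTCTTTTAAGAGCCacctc
H4c4, chr13:23581945-23581970, plus strand: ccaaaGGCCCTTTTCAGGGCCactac
H4f16, chr6:136803993-136804018, minus strand: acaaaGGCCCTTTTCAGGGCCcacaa
H2ax, chr9:44335235-44335260, plus strand: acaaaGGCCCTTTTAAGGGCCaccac
All 6 stretches lie in annotated 3′ untranslated exon sequence. The consensus was found on the sense strand in 48 of 104 coding histone genes (46.2%) and in 3 of 21595 other coding genes (0.0139%), or 51 of all 21699 (0.235%). On the reverse strand it was found in 0 histone genes and 3 others. Among the core replication-dependent genes it was found in 10 of 16 H2A, 9 of 15 H2B, 9 of 12 H3 and 11 of 12 H4 genes. Among the replacement variants it was found in H2ax only, 1 of 8. There the annotated transcript runs on for 822 bases beyond the stem-loop and carries a poly(A) signal (AATAAA or ATTAAA) in its last 50 bases. H4f16 has the same arrangement, with 2445 bases after the stem-loop. The annotated H2ac24 transcript ends with the printed stretch, 3 bases after the stem-loop. That of H2bc9 runs on for 1214 bases after the stem-loop, with no such signal in its last 50. No stretch matching the consensus lay in this window in H3f3a, H3f3b, H2az1, H2az2, H1f0, H1f8, H2aj, Macroh2a1 or H2bc21.

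Replacement histones made up most of the polyadenylated histone RNA. All members without H2bc21 summed to 2880 ± 655 CPM (SD over all embryos), of which the replacement variants held 86.7% ± 6.81 (SD). The 2 H3.3 genes held 54.5% ± 6.14 and the 2 H2A.Z genes 30.2% ± 6.40. Linker genes of the replacement and germ line type held 5.02% ± 5.08, nearly all of it in H1f8 and H1f0. The 56 core replication-dependent genes together held 7.00% ± 3.17 of the CPM and 11.8% ± 4.39 of the TPM. Most members were barely counted: 67 of the 108 had a mean under 1 CPM, and 17, all of the germ line and short variant class and 15 of them on chromosome X, had a rounded count of 0 in every embryo. A filter on low counts left 23 members, which were 7 of 8 replacement variants, 2 of 6 linker genes of the replacement and germ line type, 2 of 5 replication-dependent linker genes, 10 of 56 core replication-dependent genes, H2bc21, and H4f16 of the 29 germ line and short variants. None of 3 unclassed members passed.

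**Figure D1:**
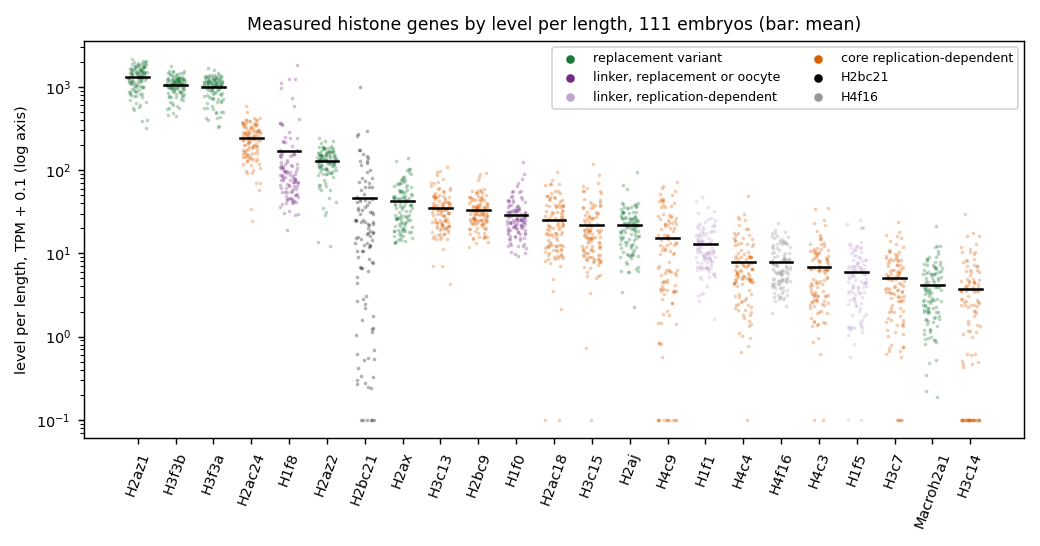
Level per transcript length (TPM + 0.1, log axis) of the 23 histone genes that passed the filter on low counts, in order of their mean; each point is 1 embryo, the bar is the mean and colours give the class. H2az1, H3f3b and H3f3a lie between 997 and 1301 TPM, above H2ac24 at 239 TPM, and H2bc21 has the widest spread.

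Per length, H2az1, which codes for H2A.Z, was highest at 1301 TPM on average, followed by the H3.3 genes H3f3b at 1062 and H3f3a at 997 TPM. The spreads of these 3 overlapped. H2ac24, a replication-dependent H2A gene, came next at 239 TPM, above the oocyte linker histone H1f8 at 171 TPM and the other H2A.Z gene, H2az2, at 128 TPM. H2ax, whose protein is phosphorylated at DNA breaks, was at 42.0 TPM, H1f0, a linker histone of non-dividing cells, at 29.0 TPM, and H2aj, a replacement H2A, at 21.6 TPM. The macroH2A gene Macroh2a1, whose protein carries a large extra domain, was at 4.03 TPM, and Macroh2a2 did not pass the filter, with a mean of 0.534 CPM and 57 embryos at 0.

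Among the core replication-dependent genes, the highest per length in each family after H2ac24 were H3c13 at 35.3 TPM, H2bc9 at 33.3 TPM, H2ac18 at 25.3 TPM, H3c15 at 21.7 TPM and H4c9 at 15.3 TPM. H4c4, H4c3, H3c7 and H3c14 lay between 3.63 and 7.86 TPM. The replication-dependent linker genes H1f1 and H1f5 were at 12.7 and 5.91 TPM, and H4f16, which codes for histone H4, at 7.72 TPM. How firmly a value belongs to its gene differed widely. Of the 31-base words in its transcripts, H2ac24 held 6.6% found in no other gene and shared 93.4% with H2ac23. H3c13, H3c14 and H2ac18 held 0.0%: H3c13 shared 80.6% of its words with H3c14, and H2ac18 shared 89.6% with H2ac19. All words (100%) of H3c13, H3c14 and H2ac18 were also found in genes outside the member list. Such outside genes held 40.3% of the H2ac24, 42.3% of the H2az1 and 30.0% of the H3f3a words. H2az1 held 57.7% found in no other gene. The split of counts between such copies, and between members and outside genes that share words, is uncertain. By contrast, most words of H1f8 (100%), H2az2 (99.0%), H2bc21 (97.2%), H3f3b (88.8%), H4f16 (85.7%) and H4c4 (85.3%) were found in no other gene. These are shares of a transcript's words and not of its counts. The injected marker RNA was not part of this search, so the value for H2bc21 does not cover words shared with the marker. Counts of H1f8 fell on 2 annotated transcripts, 51.84% and 42.11% of its total, whereas 84.83% of the H3f3b and 89.07% of the H2az1 counts fell on 1 transcript each.

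Replication-dependent genes with an annotated stop codon, together with H4f16 and without H2bc21, were also grouped by the length of the annotated transcript beyond that codon. The 20 genes with more than 200 annotated bases, H4f16 among them, had a median of 1.62 TPM (1.57 CPM). Of these 20, 8 passed the filter, H4f16 included. The 30 genes with 1 to 200 bases had a median of 1.71 TPM (0.586 CPM), and 4 of them passed. The 11 genes with 0 bases had a median of 0.994 TPM (0.237 CPM), and 1 of them passed. In CPM the median was lower in each group with shorter ends, while per length the groups with annotated bases were close; no test was made. This is a description of the annotation, since the 3′ ends of the RNAs were not measured.

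Replacement variants had the highest class sum in each of the 6 groups. Linker genes of the replacement and germ line type had a lower mean sum than core replication-dependent genes in 5 groups and a higher one in control embryos of experiment 3 (215 against 155 CPM). H3.3 genes summed to 1426 ± 443 CPM in control (SD, n = 24) and 1577 ± 584 in knockdown embryos (SD, n = 16) of experiment 1, to 1361 ± 347 (n = 7) and 1485 ± 280.5 (n = 16) in experiment 2, and to 1798 ± 329.8 (n = 25) and 1655 ± 462 (n = 23) in experiment 3. In the same order the mean of the summed H2A.Z genes was 803, 827, 801, 903, 921 and 938 CPM. The ranges of the groups overlapped for both sums. Core replication-dependent genes without H2bc21 summed to 196 ± 56.3 and 208 ± 43.3 CPM in experiment 1, 173 ± 33.3 and 187 ± 51.3 in experiment 2, and 155 ± 35.0 and 207 ± 81.4 in experiment 3. Knockdown embryos had the higher mean of this sum in all 3 experiments, by less than 1 SD in experiments 1 and 2, and over all embryos it was 174 ± 48.5 CPM in control (SD, n = 56) and 202 ± 63.5 in knockdown embryos (SD, n = 55). No test was made on the sums. The highest single value, 467 CPM, was that of knockdown embryo 15 of experiment 3. In that embryo 6 of the 10 measured core genes were among the 5 highest of all embryos.

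**Figure D2:**
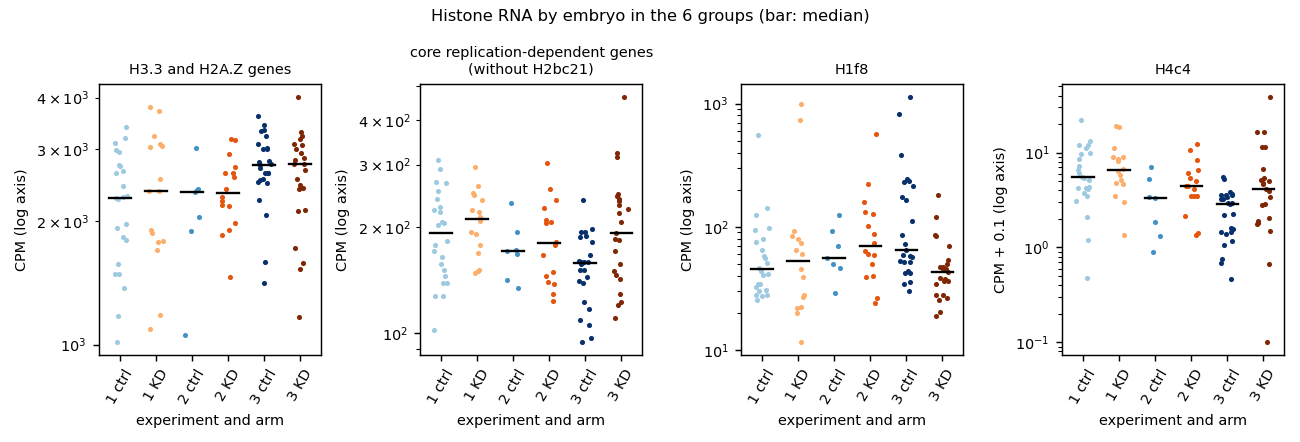
CPM on a log axis of the H3.3 and H2A.Z genes summed, the core replication-dependent genes summed without H2bc21, H1f8 and H4c4 (CPM + 0.1), by experiment (1, 2, 3) and arm (ctrl, control; KD, knockdown); each point is 1 embryo and the bar is the median. All panels overlap between arms, and the H4c4 median is higher in knockdown embryos in each experiment (6.48 against 5.39, 4.37 against 3.19 and 4.02 against 2.79 CPM).

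Knockdown was compared with control over all embryos, with experiment in the model and p-values adjusted over all 13451 features tested. Of these, 85 were called higher (0.632%) and 63 lower (0.468%) in knockdown embryos, together 1.1% of the features. Among the 23 histone genes tested, 1 was called higher, H4c4, and 0 lower. At an unadjusted p under 0.05 there were 2 histone genes, H4c4 and H2ac24, against 1280 of all features (9.52%), and DESeq2 called 1 higher and 0 lower. The share of histone genes called rests on 1 gene, with its call close to the threshold. By fold change 20 of the 23 were above 0, with a median log2 fold change of 0.08, beside 7380 of 13451 features above 0 and a median of 0.019. With library totals 17 of the 23 were above 0, and with limma-voom 14. Genes that share reads and embryos are not independent, so these counts are a description.

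H4c4, a replication-dependent gene for histone H4 (GRCm38, chromosome 13, 23581598 to 23582735, plus strand), was a gene of low level. In experiment 1 its lowest, median and highest values were 0.380, 5.39 and 21.9 CPM in control and 1.24, 6.48 and 19.0 CPM in knockdown embryos. In experiment 2 they were 0.802, 3.19 and 6.95 CPM in control and 1.24, 4.37 and 12.1 CPM in knockdown embryos, and in experiment 3 they were 0.360, 2.79 and 5.49 CPM in control and 0, 4.02 and 38.9 CPM in knockdown embryos. The arms overlapped in every experiment, and 37 of 55 knockdown embryos lay above the control median of their experiment. The log2 fold change was 0.83 (SE 0.23, edgeR adjusted p = 0.0484), and by experiment 0.19 (SE 0.36), 0.65 (SE 0.54) and 1.41 (SE 0.33). These 3 values did not differ past the threshold (interaction, unadjusted p = 0.0488, edgeR adjusted p = 0.879). Without knockdown embryo 15 of experiment 3, chosen after its values were seen, the fold change was 0.66 with an adjusted p of 0.148. The call was also lost without experiment 1, 2 or 3 in turn (edgeR adjusted p = 0.0713, 0.0883 and 0.808). In the authors' deposited table, made per transcript, H4c4 had an adjusted p of 0.0701.

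**Figure D3:**
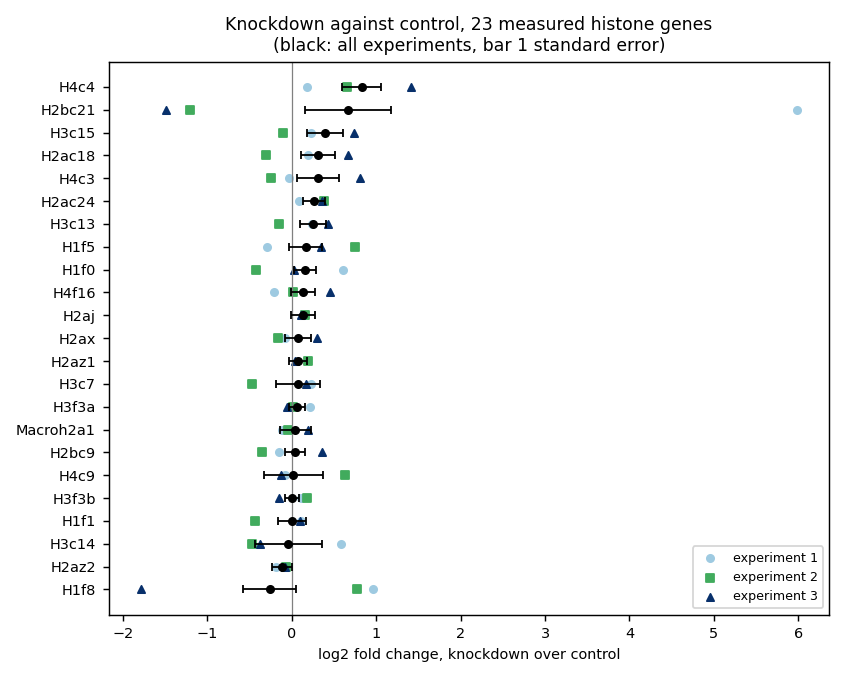
Log2 fold change, knockdown over control, of the 23 histone genes tested; black points are the fit over all 3 experiments with a bar of 1 standard error, coloured symbols the 3 experiments. H4c4 is at 0.83 with all 3 experiments above 0, H2bc21 spans -1.49 to 5.98, and H1f8 spans -1.78 to 0.97.

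No other member passed the threshold. H2ac24 had 61.8 ± 27.1 CPM in control (SD, n = 56) and 76.7 ± 31.1 in knockdown embryos (SD, n = 55). Its log2 fold change was 0.26 (SE 0.13, adjusted p = 0.513 in edgeR), with 37 of 55 knockdown embryos above the control median of their experiment. For the H3.3 genes and H2az1 the 95% intervals of the log2 fold change were narrow. The interval was -0.17 to 0.18 for H3f3b (1071 ± 302 CPM in control, 1052 ± 335 in knockdown), -0.13 to 0.24 for H3f3a (513 ± 161 and 531 ± 159.9) and -0.13 to 0.28 for H2az1 (785 ± 258 and 829 ± 291). H2az2 (71.2 ± 26.8 and 66.6 ± 22.7 CPM) had an interval of -0.36 to 0.12, H2ax of -0.22 to 0.38, H2aj of -0.15 to 0.41 and Macroh2a1 of -0.32 to 0.40. Those of H2ax, H2aj and Macroh2a1 were wider than that of the replication-dependent gene H2bc9, at -0.19 to 0.27. For the low replication-dependent genes the data were less precise, and intervals reached -0.66 to 0.71 for H4c9 and -0.82 to 0.74 for H3c14. The other H3 genes H3c15 and H3c13 were at 0.39 (SE 0.22) and 0.25 (SE 0.15) on the log2 scale, with edgeR adjusted p-values of 0.597 and 0.662. H2ac18 was at 0.31 and H4c3 at 0.31, with adjusted p-values of 0.711 and 0.817. The linker genes H1f5, H1f1 and H1f0 were at 0.16, 0.0030 and 0.16, all with an adjusted p over 0.8.

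H1f8, the linker histone stored in the oocyte (GRCm38, chromosome 6, 115944938 to 115950236, plus strand), varied most among the measured linker genes. Its medians were 45.2 and 52.5 CPM in control and knockdown embryos of experiment 1, 56.4 and 69.3 in experiment 2, and 65.3 and 42.7 in experiment 3. Single embryos reached 556, 993, 126, 564, 1136 and 180.3 CPM in the same order, so group means were set by a few embryos and the groups overlapped. Over all embryos the log2 fold change was -0.26 (SE 0.32, edgeR adjusted p = 0.911), and by experiment 0.97, 0.77 and -1.78. The difference between these values did not pass the threshold (interaction, edgeR adjusted p = 0.0568). It passed without knockdown embryo 15 of experiment 3 (0.0355), with library totals (0.0184) and with no filter (0.00322). It did not pass with limma-voom (0.688), DESeq2 size factors (0.0753) or the marker covariate (0.596). Nor did it pass without experiment 1, 2 or 3 in turn (0.908, 0.127 and 0.974).

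H2bc21 (GRCm38, chromosome 3, 96221119 to 96223738, plus strand) had the widest spread of level among the measured members. Its lowest, median and highest CPM were 0, 0.447 and 12.4 in control and 9.59, 76.9 and 174 in knockdown embryos of experiment 1. In experiment 2 the 7 control embryos had 1201, 414, 411, 93.1, 22.5, 69.6 and 221 CPM, and the knockdown embryos 3.74, 164 and 424 CPM (lowest, median, highest). In experiment 3 they were 1.48, 35.5 and 158 in control and 0, 15.5 and 48.7 in knockdown embryos. Thus knockdown embryos were the higher arm in experiment 1 and the lower arm in experiments 2 and 3, with overlap in each. The log2 fold changes were 5.98, -1.21 and -1.49, and their difference was called (interaction, edgeR adjusted p = 1.73e-18). It was 1 of 2 features called by that test among 13451 (0.0149%), and the only histone gene. At an unadjusted p under 0.05 the test took 761 features (5.66%). Over all experiments the log2 fold change of H2bc21 was 0.67 (SE 0.51, edgeR adjusted p = 0.802). The authors' deposited table, which is per transcript, gives it 2.03 with an adjusted p of 1.44e-04.

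The marker rows moved with H2bc21. Their mean was 0.235 and 166 CPM in control and knockdown embryos of experiment 1, 1505 and 322 in experiment 2, and 168 and 31.9 in experiment 3. On the scale of log2(CPM + 1), H2bc21 and the summed marker rows had a Pearson's r of 0.990, 0.999, 0.994, 0.981 and 0.978 within the 5 groups that held marker RNA, and of 0.221 (permutation p = 0.246) in the control embryos of experiment 1. The median ratio of H2bc21 to marker CPM was 0.464 and 0.451 in knockdown embryos of experiments 1 and 2, 0.532 in those of experiment 3, and 0.244 and 0.270 in control embryos of experiments 2 and 3. H2bc9, the other measured H2B gene, had r between -0.214 and 0.373 with the marker rows in the 6 groups. In control embryos of experiment 3 its rho was 0.488 (permutation p = 0.0143, adjusted to 0.0286 over the 12 relations of both genes). There r was 0.373 (adjusted permutation p = 0.147). The 12 relations include those of H2bc21, set apart in advance for following the marker, which eases this adjustment for H2bc9. H2bc9 is therefore not taken as called. With marker level as a covariate the interaction test called 0 features, and H2bc21 had an edgeR adjusted p of 0.811. The marker level differs by experiment and arm as H2bc21 does, so this outcome was to be foreseen and adds no further evidence. What share of the H2bc21 counts came from the injected RNA was not tested.

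**Figure D4:**
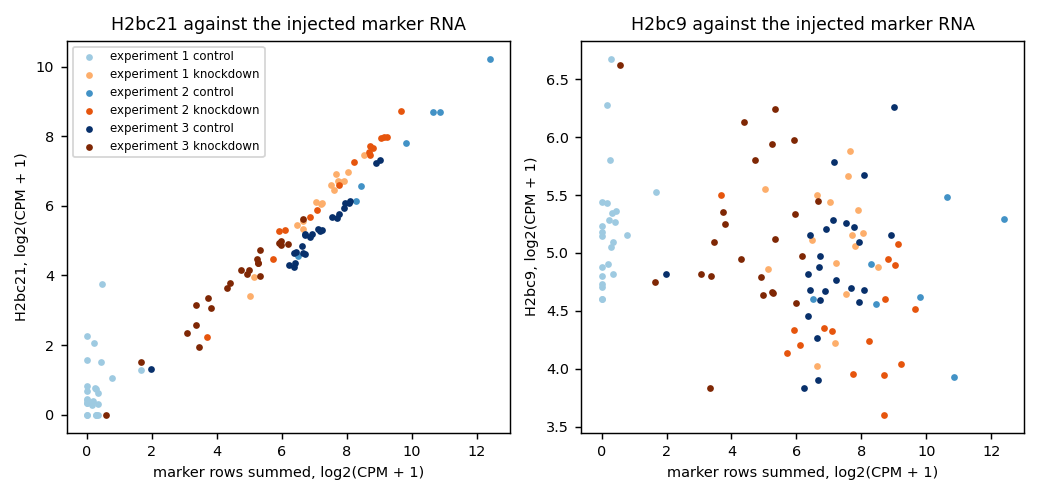
H2bc21 (left) and H2bc9 (right) against the summed marker rows, all as log2(CPM + 1), with 1 point per embryo and colours for the 6 groups. H2bc21 rises with the marker in each of the 5 groups that hold it (r 0.978 to 0.999), while H2bc9 has r between -0.214 and 0.373.

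Experiments differed in several histone genes within an arm. Among control embryos the 3 experiments differed in 1721 of 16130 features (10.7%) and in 9 of 44 histone genes tested (20.5%). Among knockdown embryos they differed in 1825 of 14173 features (12.9%) and in 4 of 32 histone genes (12.5%), a share near that of all features. The smallest p-values in control embryos were those of H2bc21 (edgeR adjusted p = 4.89e-16), the linker gene H1f5 (2.11e-05) and the H2A gene H2ac20 (8.08e-04). Mean H1f5 was 4.49, 0.897 and 1.79 CPM in experiments 1, 2 and 3, and mean H2ac20 was 1.87, 0.247 and 0.385 CPM. H4c4, at 6.82, 3.20 and 2.45 CPM (edgeR adjusted p = 0.00105), and H2ax, at 45.0, 34.0 and 25.7 CPM (0.0224), were also highest in experiment 1. H1f8, at 76.7, 67.1 and 180 CPM (0.0268), and H3f3b, at 977, 872 and 1217 CPM (0.049), were highest in experiment 3. H2ac22 and H4f16 were the remaining 2. In knockdown embryos H2bc21 (6.26e-08), H4f16 (0.00254), H2bc9 (0.00507) and H1f8 (0.0295) were called.

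H4f16 was lowest in experiment 2 in both arms, at 16.2, 7.31 and 12.3 CPM in control and 13.9, 7.33 and 16.9 CPM in knockdown embryos. H1f8 was called in both arms with different orders, since in knockdown embryos its means were 149.9, 114 and 52.3 CPM. H2bc21, H1f8 and H4f16 were called in both arms, beside 702 of 14170 features tested in both (4.95%). With limma-voom H1f8 was called in neither arm, and H4c4 and H4f16 were no longer called in control embryos. What made the experiments differ was not tested.

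The highest histone gene of each measured class was then compared with the others across embryos, within each of the 6 groups. These 9 genes, the summed 2-cell and oocyte markers and the library total gave 63 pairs and 378 relations, chosen after values had been seen. Of the 378 relations, 58 had an adjusted permutation p under 0.05 for r. The pairs named below are a selection from the 63. The points share library totals and an embryo's composition. The pair H2bc9 and H4f16 rose together in 4 of 6 groups (adjusted permutation p under 0.05 for both r and rho). Pearson's r was 0.753 and 0.758 in control and knockdown embryos of experiment 1, 0.729 and 0.875 in those of experiment 3, and 0.650 and 0.233 in experiment 2. In knockdown embryos of experiment 3 the pair had rho 0.885, with a permutation p of 1e-05 for r and for rho, the smallest that 100000 permutations can give. Leaving out the 2 embryos farthest from the median of H2bc9 left r at 0.636, 0.695, 0.614 and 0.853 in the 4 groups and turned it to -0.415 in knockdown embryos of experiment 2.

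Other pairs differed in sign and were called in fewer groups. H2bc9 and H3c13, both replication-dependent, had r from 0.0043 to 0.781, with an adjusted p under 0.05 in 2 groups for both r and rho. H2ac24 and H2bc9 had r from -0.533 to 0.096, with 0 groups past that threshold. H2bc9 and H2az1 had r from -0.750 to -0.390, below 0 in 6 of 6 groups and past the threshold in 2 for r and 1 for rho. H2ac24 and H4f16 had r from -0.811 to -0.192, past the threshold in 1 group. H2ac24 and H2az1 had r from 0.361 to 0.967, past the threshold in 3 groups for r and 0 for rho. Without the 2 farthest embryos the lowest r of that last pair was 0.0636. H2bc9 and H1f8 had r above 0 in 5 of 6 groups, up to 0.734, and past the threshold in 1.

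**Figure D5:**
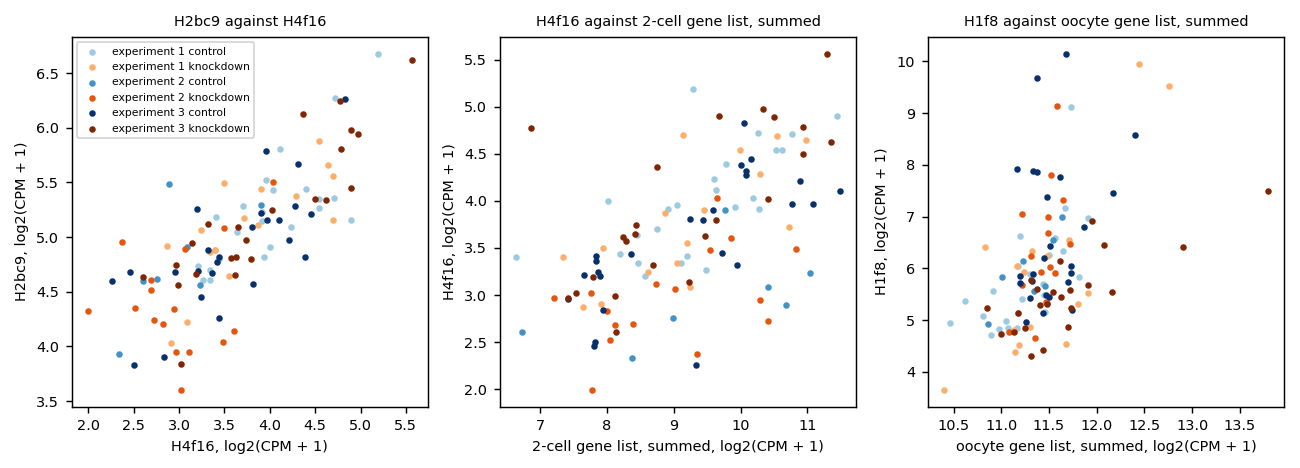
H2bc9 against H4f16, H4f16 against the summed 2-cell markers and H1f8 against the summed oocyte markers, all as log2(CPM + 1), with 1 point per embryo and colours for the 6 groups. Within groups r runs from 0.233 to 0.875, from 0.478 to 0.721 and from 0.259 to 0.783.

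H4f16 rose with the summed 2-cell markers in 4 of 6 groups, with r from 0.478 to 0.721 over all 6. H1f8 and the summed oocyte markers had r from 0.259 to 0.783, with an adjusted p under 0.05 in 3 groups for r and 2 for rho. H3f3b and the 2-cell markers had r from -0.617 to -0.285, with an adjusted p under 0.05 in 1 group for r and 0 for rho.

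Genes for the making and decay of histone mRNA were read from a list of 19, all of which were tested. Of these, 1 was called higher and 0 lower in knockdown embryos, beside 0.632% and 0.468% of all 13451 features. The share called rests on 1 gene, and the median log2 fold change of the list was -0.0068. Sympk, which codes for symplekin, a scaffold of the complex that cleaves histone pre-mRNA and also of the cleavage and polyadenylation complex, was at 30.0 ± 9.55 CPM in control (SD, n = 56) and 40.0 ± 13.4 CPM in knockdown embryos (SD, n = 55). Its log2 fold change was 0.39 (SE 0.088, edgeR adjusted p = 0.00704), and 39 of 55 knockdown embryos lay above the control median of their experiment. By experiment the log2 fold change of Sympk was 0.75 (SE 0.14), 0.13 (SE 0.20) and 0.20 (SE 0.13). These did not differ past the threshold (interaction, edgeR unadjusted p = 0.00743, adjusted p = 0.651). The call of Sympk was lost without experiment 1, at 0.18. Casp8ap2, which takes part in histone gene expression, was at 0.21 (edgeR adjusted p = 0.344). Npat, the coactivator of histone genes at the histone locus body, was at -0.15 (0.673). Slbp, whose protein binds the stem-loop, was at -0.02 with a level of 369 CPM.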

How the data were processed

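SmartSeq2 libraries, made with oligo dT and without molecular identifiers or strand, came from 56 control and 55 knockdown embryos. Per the submitters' processing notes, reads went through bcl2fastq, Trim Galore 0.6.2 and kallisto 0.46.1, with mm10 and hg19 listed without a role. Nothing read here names the annotation release of the index. The authors' deposited main table holds each transcript's estimated counts, not normalized, which were summed to genes and rounded. The authors' deposited batch-adjusted values, a score with no stated method, served as an alternative only. The authors' deposited DESeq2 table gives a log2 fold change and an adjusted p-value for each transcript and supplied gene symbols.

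Genes were tested with edgeR 4.0.16 (R 4.3.3): filterByExpr by arm, TMM scaling, quasi-likelihood F-test with experiment as a factor, Benjamini-Hochberg adjustment over 13451 features at 0.05, and 107 residual degrees of freedom. The interaction and the differences between experiments within an arm used the same test. The test was tried on simulated counts first. CPM use TMM-scaled totals (marker rows: totals over genes), and TPM use GENCODE M21 lengths. Standard errors are the fold change over the root of F, and 95% intervals from these and the residual degrees of freedom. Correlations have two-sided permutation p-values from 100000 resamples (exact for 7 embryos), adjusted over 12 relations with the marker rows and over 378 relations between genes. Alternatives used DESeq2 1.42.0 and limma 3.58.1.

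The genes named were H2bc21, those called in the knockdown or interaction test, the 3 with the smallest p in each experiment test, the 3 with the highest TPM and the 1 with the smallest knockdown p in each class, all members of the H1f8, H3.3, H2A.Z, H2A.X and macroH2A groups, and called genes and the 3 smallest p-values of the processing list. Members, lists and alternatives were chosen with earlier results of these data known. The design text names 57 control embryos; embryo 1 among the controls of experiment 2 is not analysed here.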

Additional observations from a re-analysis of the deposited data

Results flagged for a closer look

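In the 7 control embryos of experiment 2, embryo 2 lay far above the others in several measures. The rule used marks about 1 in 20 such groups by chance, and it was applied to 32 measures. H1f0 was at 118.6 CPM there, and the next embryo at 44.66 CPM. H2bc21 was at 1201 CPM and the marker rows at 5413 CPM, against 1864 CPM in the next embryo. The summed linker genes of the replacement and germ line type were at 245.4 CPM, and 107.2 CPM in the next embryo. Embryo 2 was also the lowest in H2ac24, at 5.33 CPM with the next at 52.0 CPM. The same held for H3f3b, at 489 CPM with the next at 733 CPM, though the rule marked neither gene. In the same group embryo 3 was highest in H1f1, at 13.89 CPM, with the next at 7.188 CPM. H1f0, H2bc21 and the marker rows were highest in the same embryo, and whether these values have a shared source was not tested.

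The knockdown response of H2bc21 differed between experiments (interaction, edgeR adjusted p = 1.73e-18), being above 0 in experiment 1 and below 0 in experiments 2 and 3, as the marker rows were.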

How the results depend on the processing

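The main fit called 63 lower and 85 higher of 13451 features, and no filter 391 and 575 of 30694. The fit with embryos of the same number as a replicate block called 8 and 11 of 13398. Histone genes called higher numbered 0 with library totals, limma-voom, the replicate block and batch-adjusted values, 0 without experiment 1, without experiment 2 or without exp3_knockdown replicate 15, and 3 with no filter (H1f6, H1f9, H4c4). Under the stricter filter H4c4 was not tested, and 0 of the 12 histone genes left were called. H2bc21 was called lower without experiment 1 (1 gene), and higher without experiment 3 (3.31, adjusted p 0.0203), where H4c4 was not. H4c4 ran from 0.35 (adjusted p 0.808, without experiment 3) to 1.19 (0.0713, without experiment 1), and was 0.74 (0.33) in the replicate block. The interaction called 2 histone genes with library totals (7 of 13451 features) and 2 without exp3_knockdown replicate 15 (4 of 13502). It called 5 with no filter (527 of 30694 features). Without experiment 1 or with the marker covariate it called 0 histone genes and 0 features. Sympk lost its call in the replicate block (0.35, adjusted p 0.201) and without experiment 1. Other values of the alternatives, 326 in all, were counted as unchanged. Those with a test or a sign kept their direction and side of the threshold, and class sums lay within 1 SD of the main value. At this depth 85 of the 108 members were too low to be tested. No filter gave 12 histone genes between experiments in knockdown embryos, beside 3433 of 29175 features. Embryo numbers did not pair the embryos: over 46 pairs r ran from -0.364 to 0.376 with a median of 0.0523.

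Log2 fold changes changed sign as follows, and the cause was not tested. With library totals H1f1 was -0.044, H3f3b -0.032 and Macroh2a1 -0.0090. With voom H1f1, H1f5, H2ax, H3c7, H3f3b and H4c3 were -0.019, -0.061, -0.0030, -0.33, -0.029 and -0.075. With batch-adjusted values H1f1, H2ax, H3c14, H3c7, H3f3b and Macroh2a1 were -0.013, -0.017, 0.068, -0.21, -0.057 and -0.0088. In the replicate block H1f1, H3c14, H3c7, H3f3b, H4c3 and H4f16 were -0.045, 0.36, -0.43, -0.016, -0.039 and -0.0055. H1f1 was -0.013 with the marker covariate and -0.0099 with no filter. Without exp3_knockdown replicate 15 H1f1, H2bc9 and Macroh2a1 were -0.032, -0.0079 and -0.026. Without experiment 1 H1f0, H1f1, H2bc21, H3c7, H3f3a and H3f3b were -0.12, -0.066, -1.42, -0.026, -0.034 and -0.065. Without experiment 2 H3c14, H3f3b and H4c9 were 0.055, -0.032 and -0.10. Without experiment 3 H1f1, H1f8, H2ax, H2bc9, H3c14, H4c3, H4f16 and Macroh2a1 were -0.050, 0.90, -0.10, -0.21, 0.23, -0.078, -0.12 and -0.081.

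Counting H2bc21 with H2B moved that sum to 124 and 179.5 CPM in knockdown embryos of experiments 1 and 2 and to 382 and 84.0 CPM in control embryos of experiments 2 and 3. For H2bc9 and the marker, rho was 0.118, 0.0781 and 0.488 in knockdown embryos of experiments 2 and 3 and control embryos of experiment 3. Without the 2 farthest embryos r was 0.234, 0.275 and 0.442 there, and -0.103 in control embryos of experiment 2.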
